A study of Mus musculus with 54 samples.

Results

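The 10 genes described here, chosen by symbol, encode the enzymes that make and degrade the polyamines and the proteins that set the activity of the first of these enzymes. They are Odc1, Amd1, Srm, Sms, Sat1, Smox, Paox, Azin1, Oaz1 and Oaz2, 10 of the 39179 gene identifiers counted. All 10 passed the filter on low counts in both experiments. RNA was sequenced from thioglycolate-elicited peritoneal exudate cells of C57BL/6 mice, aged 8 to 20 weeks, which were kept as adherent cultures enriched for macrophages. In the polarization experiment, cells of 3 mice were kept for 24 h without a stimulus (M0), with LPS at 100 ng/ml and interferon gamma at 50 ng/ml (M1-like), or with IL-4 at 10 ng/ml (M2-like). In the reprogramming experiment, the same 3 stimuli were given for 24 h and cells were then left untransfected or transfected, with RNA taken 48 h after transfection and 3 samples for each of 12 conditions. Mock cells (M0, M1-like and M2-like) received the transfection reagent alone. M2-like cells also received a negative siRNA pool, a pool against E2f1, Myc, Pparg or Stat6, or a combined pool against all 4, and after transfection they were cultured without IL-4. The siRNAs against Myc came from another supplier than the pools against the other 3 factors, the supplier of the negative pool was not given, and the harvest time of the untransfected cells of this experiment was not stated separately. The study's methods call the 3 samples of a condition biological replicates, and the labels number mice in the polarization experiment only.

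The polyamines putrescine, spermidine and spermine are small positively charged molecules that bind nucleic acids and are needed for growth. Ornithine, which arginase makes from arginine, is turned into putrescine by ornithine decarboxylase (Odc1), and aminopropyl groups derived from S-adenosylmethionine by Amd1 are then added to give spermidine (Srm) and spermine (Sms). In macrophages this route lies downstream of the arginase that IL-4 induces, and it competes for arginine with the nitric oxide synthase that LPS and interferon gamma induce. Sat1 acetylates spermidine and spermine for export or for oxidation by Paox, and Smox oxidizes spermine directly back to spermidine. Antizymes (Oaz1 and Oaz2) bind ornithine decarboxylase and send it to the proteasome, and the antizyme inhibitor (Azin1) binds the antizymes in its place. A high polyamine level makes ribosomes shift frame on the antizyme mRNA, which lets the whole antizyme be made.

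The frameshift site is shown because it defines the antizymes and because the same letters stand in a second gene, Oaz1-ps, to which counts were also assigned. The 3 stretches of 60 bases below were read from GENCODE M21 transcripts (build GRCm38) and run 5′ to 3′, with the shift site in capitals. They lie at chr10:80828268-80828327 on the plus strand (Oaz1), chr17:17345904-17345963 on the minus strand (the processed pseudogene Oaz1-ps) and chr9:65686245-65686304 on the plus strand (Oaz2).
Oaz1: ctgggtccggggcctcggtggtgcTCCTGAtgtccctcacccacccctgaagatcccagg
Oaz1-ps: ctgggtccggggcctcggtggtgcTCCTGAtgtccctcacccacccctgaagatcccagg
Oaz2: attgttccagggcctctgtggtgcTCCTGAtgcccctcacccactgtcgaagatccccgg
The stretches of Oaz1 and Oaz1-ps were identical at 60 of 60 bases, and those of Oaz1 and Oaz2 at 49 of 60. Over its whole transcript Oaz1-ps matched Oaz1 at 683 of 684 aligned bases, Sms-ps matched Sms at 1101 of 1101, Oaz2-ps matched Oaz2 at 528 of 537, and Amd2 matched Amd1 at 3190 of 3204. In the paired reads of the reprogramming experiment a median of 89.6% of the counts of Oaz1 and Oaz1-ps together were assigned to Oaz1-ps, against 55.3% in the single reads of the polarization experiment. The share on Sms-ps was 68.8% and 49.0%, that on Amd2 was 19.6% and 45.1%, and that on Oaz2-ps was 2.97% and 18.6%, in the same order. Counts of Oaz1, Sms, Amd1 and Oaz2 are therefore uncertain, and each result for them was also computed with gene and copy summed. Exons of Paox share sequence or position with Echs1 and Gm19680, and Odc1 shares sequence with Gm17709 and Gm9115, so that their counts carry the same uncertainty.

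**Figure D1:**
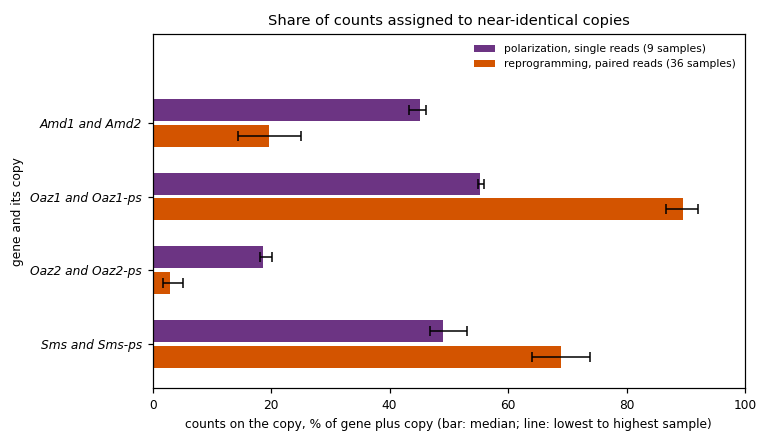
The x axis gives the counts assigned to the copy as a percent of gene plus copy, for 4 pairs (y axis), with the median as a bar and the lowest to highest sample as a line, in 9 polarization samples (single reads) and 36 reprogramming samples (paired reads). Oaz1-ps took a median of 55.3% in the first and 89.6% in the second.

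Promoter sequence was looked at for 2 motifs, the E-box CACGTG, to which MYC can bind, and a core to which STAT6 can bind, TTC and GAA with any 4 bases between them. RefSeq windows (GRCm38.p6, from 250 bases before to 50 bases after the gene start) matched 8 of the 10 genes, in 10 windows, and Srm and Azin1 had no entry. Of the 10 windows, only that of Sms, on the minus strand of chromosome X, held CACGTG, and sequence outside the windows was not searched. The stretch chrX:157492448-157492507 is shown with the motif in capitals.
Sms: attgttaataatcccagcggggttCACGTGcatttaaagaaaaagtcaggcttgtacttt
The motif began 196 bases before the gene start, and 7.15% of 32851 promoters held it. None of the 10 windows held the STAT6 core, which 6.95% of all promoters held. Both motifs were searched on both strands, and a match describes letters and not binding.

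Libraries held 13421854 to 29880494 counts. The 2 technical replicates of each mouse were summed in the polarization experiment, which gave 39577911 to 59443987 counts per sample. M2-like mouse 1 stood furthest from its group at 24 h (chi-square per gene 87.4 and 96.6 against the other mice, which differed from each other by 5.93). M0 mouse 1 at 24 h (20.7 and 19.6, against 5.86), M0 mock replicate 3 (17.4 and 22.5, against 10.7) and replicate 1 of the untransfected M1-like cells (23.0 and 19.3, against 11.5) stood apart by less. Without M0 mock replicate 3 no call of the 10 genes changed, and calls that were lost without one of the others are given with their gene. Calls gained with 1 sample left out are not all named. The count rose from 5 to as many as 7 in M2-like against M0 cells at 24 h. It rose from 7 to as many as 8 in untransfected M1-like against M0 cells. The labels held up in the transcripts that define them. Nos2 differed between M1-like and M2-like cells by 13.54 and Chil3 by -8.43 on the log2 scale at 24 h, and each pool lowered its target (log2 fold change against the negative pool -1.98 for E2f1, -1.38 for Myc, -2.19 for Pparg and -1.87 for Stat6). All 8 macrophage markers were at 10 CPM (counts scaled to a common library size) or more in every sample. In the reprogramming experiment the 6 mesothelial and fibroblast markers summed to 18.2 to 61.4 CPM in the 6 M1-like samples and to 86.0 to 296 CPM in the 6 untransfected and mock M2-like samples, and the macrophage markers summed to 6448 to 8096 and 14842 to 18409 CPM in the same samples. The 4 eosinophil markers, mostly Siglecf, summed to 0.270 to 0.817 CPM in M1-like and 14.1 to 19.1 CPM in M2-like cells at 24 h, and to 0.610 to 1.70 and 15.5 to 20.1 CPM in the untransfected and mock cells of the reprogramming experiment. The 5 B cell markers summed to 0.733 to 2.36 CPM in those M1-like samples and to 6.90 to 14.8 CPM in those M2-like samples. The 8 neutrophil markers summed to 0.389 to 1.02 CPM at 24 h and to 0 to 7.27 CPM in the reprogramming experiment, where Ltf reached 2.68 CPM. Of the defining markers, the neutrophil gene Ly6g was at 0 in every reprogramming sample, and the neutrophil gene Elane and the eosinophil gene Prg2 were at 0 in every polarization sample. The part of other cells in the results below was not tested, and in bulk RNA fewer cells of a type and less RNA per cell cannot be told apart.

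After 24 h of LPS and interferon gamma, all 10 genes differed from M0, where the share of all genes tested, called the background below, was 72.9%, with 35.4% higher and 37.5% lower (edgeR quasi-likelihood test, Benjamini-Hochberg adjusted p below 0.05 here and throughout). Smox and Odc1 rose and the other 8 fell. The median log2 fold change of the 10 was -0.76, against -0.04 over all genes. With IL-4, 5 of the 10 differed from M0 (background 27.9%, with 13.5% higher and 14.4% lower): Odc1, Amd1 and Srm rose, and Smox and Oaz2 fell. Both contrasts share the M0 samples. Directly compared, 7 of the 10 differed between M1-like and M2-like cells (background 72.6%, with 34.6% higher and 38.1% lower), with Smox higher in M1-like cells and Amd1, Srm, Sms, Sat1, Azin1 and Paox lower.

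Odc1, the entry enzyme, rose under both stimuli. Its level was 21.4, 20.2 and 24.2 CPM in the 3 M0 samples, 29.6, 28.5 and 27.2 CPM in the M1-like and 28.2, 26.8 and 29.8 CPM in the M2-like samples (TMM-scaled, mice 1 to 3 in order). Every stimulated sample lay above every M0 sample, and the M1-like and M2-like samples overlapped. The change from M0 was 0.38 on the log2 scale in M1-like cells (adjusted p = 9.1e-04) and 0.37 in M2-like cells (adjusted p = 0.0044). Between M1-like and M2-like cells the difference was 0.01, with a 95% interval of -0.16 to 0.18.

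Amd1 and Srm fell from M0 in M1-like cells and rose in M2-like cells, and Sms fell in M1-like cells. Amd1, which makes the aminopropyl donor, stood at 32.1, 32.3 and 35.4 CPM in M0, 14.3, 16.6 and 16.6 CPM in M1-like and 50.5, 43.4 and 43.6 CPM in M2-like cells. The 3 conditions did not overlap, with M1-like cells lowest and M2-like cells highest (M1-like against M2-like: log2 fold change -1.53 ± 0.09 SE, adjusted p = 8.5e-09). Spermidine synthase, Srm, was at 12.3, 11.4 and 12.6 CPM in M0, 4.40, 5.59 and 6.30 CPM in M1-like and 13.9, 16.8 and 18.0 CPM in M2-like cells. It kept the same order without overlap (M1-like against M2-like: log2 fold change -1.57 ± 0.13 SE, adjusted p = 3.3e-07). Spermine synthase, Sms, was at 28.4, 29.7 and 29.1 CPM in M0, 13.8, 15.6 and 14.0 CPM in M1-like and 37.6, 32.0 and 29.1 CPM in M2-like cells. M1-like samples were the lowest, with no overlap, while M0 and M2-like samples overlapped (M1-like against M2-like: log2 fold change -1.19 ± 0.09 SE, adjusted p = 2.2e-07, and M2-like against M0: log2 fold change 0.18 ± 0.09 SE, adjusted p = 0.17). The rise of Srm in M2-like cells did not pass when some single samples were left out, with an adjusted p of 0.061 without M0 mouse 1, 0.093 without M0 mouse 2, 0.066 without M2-like mouse 2 and 0.070 without M2-like mouse 3.

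Among the genes of breakdown, Smox rose from M0 in M1-like cells, where Sat1 and Paox fell. Smox, the spermine oxidase, was at 15.7, 15.8 and 15.1 CPM in M0, 97.0, 72.1 and 77.9 CPM in M1-like and 7.39, 11.0 and 11.0 CPM in M2-like cells. No sample of one condition reached another, and M1-like cells lay above and M2-like cells below M0 (M1-like against M2-like: log2 fold change 3.06 ± 0.15 SE, adjusted p = 2.4e-09). Sat1, the acetyltransferase, was at 259, 261 and 270.4 CPM in M0, 84.1, 82.0 and 93.5 CPM in M1-like and 328, 291 and 279 CPM in M2-like cells. The M1-like samples were all far below the rest (M1-like against M0: log2 fold change -1.61 ± 0.08 SE, adjusted p = 1.6e-09), and the M2-like samples lay above M0 without passing the test (log2 fold change 0.18 ± 0.07 SE, adjusted p = 0.083). Paox, the oxidase of acetylated polyamines, was at 10.3, 8.80 and 10.6 CPM in M0, 3.08, 3.32 and 3.64 CPM in M1-like and 7.97, 9.26 and 10.4 CPM in M2-like cells. Its M1-like samples were again apart from the rest, while M0 and M2-like samples overlapped (M1-like against M0: log2 fold change -1.56 ± 0.13 SE, adjusted p = 2.6e-07).

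Azin1, Oaz1 and Oaz2, the regulators of ornithine decarboxylase, all fell from M0 in M1-like cells. Azin1, the inhibitor of the antizymes, was at 301, 319.8 and 331 CPM in M0, 280.0, 271 and 261 CPM in M1-like and 383, 306 and 305 CPM in M2-like cells. M1-like samples were lowest without overlap (M1-like against M2-like: log2 fold change -0.29 ± 0.09 SE, adjusted p = 0.0098). Oaz1 was at 129, 126 and 123 CPM in M0, 87.2, 88.1 and 91.4 CPM in M1-like and 82.8, 112 and 119 CPM in M2-like cells, and M2-like mouse 1 lay below every M1-like sample (M1-like against M0: log2 fold change -0.50 ± 0.11 SE, adjusted p = 0.0010). Oaz1 did not pass between M1-like and M2-like cells (log2 fold change -0.23 ± 0.11 SE, adjusted p = 0.066), and it did without M2-like mouse 1 (-0.38, adjusted p = 2.7e-05). Oaz2 was at 23.0, 22.5 and 22.3 CPM in M0, 21.7, 17.9 and 18.0 CPM in M1-like and 17.8, 19.0 and 19.2 CPM in M2-like cells, so that both stimulated conditions lay below M0 and overlapped each other. The fall of Azin1 from M0 to M1-like cells (log2 fold change -0.23 ± 0.09 SE, adjusted p = 0.032) did not pass with relative log expression scaling in place of TMM (-0.20, adjusted p = 0.056), and with single samples left out its adjusted p was 0.076 without M0 mouse 2, 0.10 without M0 mouse 3, 0.075 without M1-like mouse 2 and 0.094 without M1-like mouse 3. For Oaz2 in M1-like cells (log2 fold change -0.24 ± 0.08 SE, adjusted p = 0.018) it was 0.090 without M0 mouse 1, 0.084 without M1-like mouse 2 and 0.080 without M1-like mouse 3, and for Oaz2 in M2-like cells (log2 fold change -0.27 ± 0.08 SE, adjusted p = 0.024) it was 0.093 without M0 mouse 1, 0.070 without M0 mouse 2, 0.058 without M0 mouse 3 and 0.0511 without M2-like mouse 2.

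Without M2-like mouse 1, the other differences between M1-like and M2-like cells kept their calls. They were -1.45, adjusted p = 3.3e-09 for Amd1, -1.67, adjusted p = 6.7e-08 for Srm, -1.08, adjusted p = 3.8e-08 for Sms and -1.72, adjusted p = 1.7e-10 for Sat1 on the log2 scale. For Smox the value was 2.90, adjusted p = 4.8e-10, for Paox -1.55, adjusted p = 1.2e-07 and for Azin1 -0.17, adjusted p = 0.012. Against M0, the calls of M2-like cells held as well, at 0.37, adjusted p = 0.0048 for Odc1, 0.39, adjusted p = 0.0015 for Amd1, 0.52, adjusted p = 0.0032 for Srm, -0.49, adjusted p = 0.0071 for Smox and -0.24, adjusted p = 0.042 for Oaz2.

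**Figure D2:**
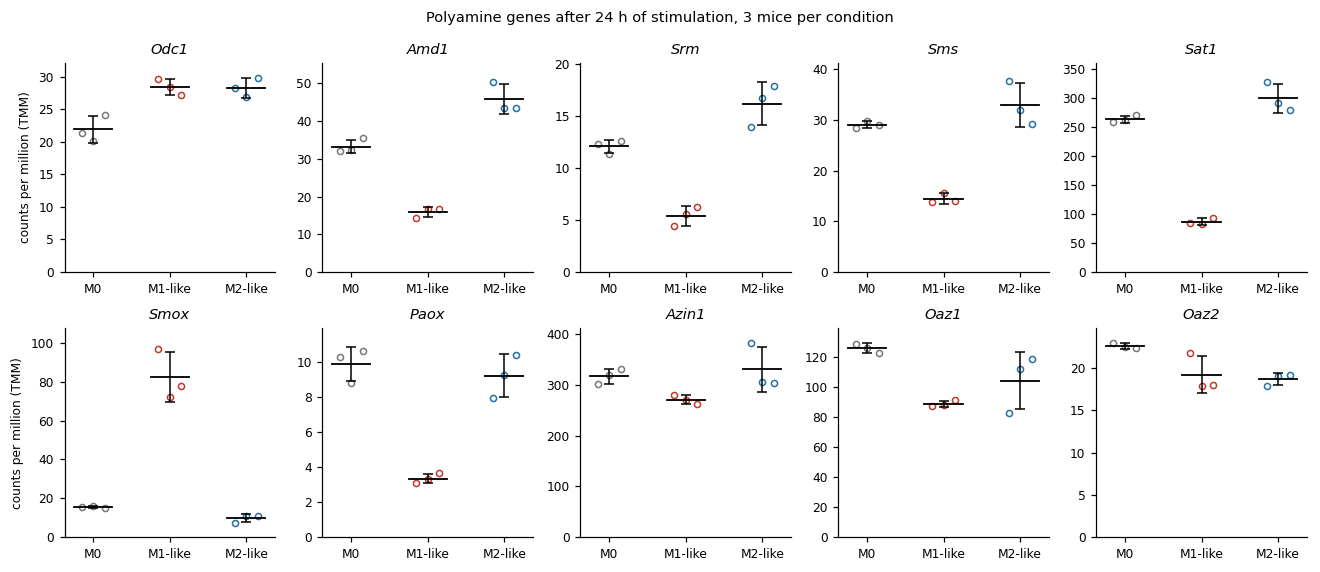
Each panel plots 1 gene after 24 h, with TMM-scaled CPM on the y axis from 0 and the M0, M1-like and M2-like conditions on the x axis, points for the 3 mice and lines for the mean ± SD. Smox reached 72.1 to 97.0 CPM in M1-like cells, against 7.39 to 11.0 CPM in M2-like cells.

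Per kilobase of exon, the mean level in M0 cells at 24 h was highest for Sat1 (95.0 CPM per kb), followed by Azin1 (50.7) and Oaz1 (49.3). The genes of synthesis lay between 4.84 (Sms) and 9.39 CPM per kb (Amd1), Smox was at 3.99, and Paox was lowest at 2.02 CPM per kb. These levels leave out the counts on the copies of Oaz1, Sms, Amd1 and Oaz2.

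In the reprogramming experiment Odc1 separated M1-like from M2-like cells, which did not pass in the polarization experiment (the change between the experiments was not tested). In untransfected cells, 7 of the 10 genes differed between M1-like and M2-like cells (background 61.5%, with 31.3% higher and 30.2% lower), with Odc1 and Smox higher in M1-like cells and Sms, Sat1, Azin1, Oaz1 and Oaz2 lower. Between the mock conditions the same 7 genes passed in the same directions (background 60.7%, with 30.9% higher and 29.8% lower). Against M0, 7 genes differed in untransfected M1-like cells (background 57.7%, with 29% higher and 28.7% lower), with Odc1 and Smox higher and Sms, Sat1, Azin1, Oaz1 and Oaz2 lower. In M1-like mock cells 8 differed from M0 mock cells (background 60.4%, with 30.3% higher and 30% lower), the same 7 in the same directions and Srm, which was lower. Only Smox differed between untransfected M2-like and M0 cells (background 19.9%, with 10.7% higher and 9.19% lower). No gene of the 10 differed between M2-like and M0 mock cells by edgeR (background 3.83%, with 2.19% higher and 1.64% lower, 3 of the 10 at an unadjusted p below 0.05, and 0 by DESeq2). Contrasts within each set share samples.

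Odc1 was at 16.8, 13.6 and 17.2 CPM in untransfected M0, 46.1, 35.4 and 42.6 CPM in M1-like and 11.4, 13.9 and 16.5 CPM in M2-like cells. In mock cells it was at 17.6, 17.1 and 18.4 CPM in M0, 38.5, 33.6 and 37.0 CPM in M1-like and 13.3, 16.8 and 13.9 CPM in M2-like cells. All 6 M1-like samples lay above all samples of the other conditions of the experiment. M1-like and M2-like cells differed when untransfected (log2 fold change 1.56 ± 0.13 SE, adjusted p = 4.8e-12) and as mock cells (log2 fold change 1.31 ± 0.13 SE, adjusted p = 2.8e-10). Untransfected M1-like and M1-like mock samples overlapped, and so did the Myc and combined pools that came next in the order of levels.

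Smox had the same direction between M1-like and M2-like cells as in the polarization experiment. Its level was 40.2, 33.7 and 34.5 CPM in untransfected M0, 58.7, 81.8 and 69.0 CPM in M1-like and 27.9, 26.2 and 28.8 CPM in M2-like cells, without overlap. In mock cells it was 38.9, 41.6 and 40.5 CPM in M0, 60.1, 71.6 and 56.9 CPM in M1-like and 31.3, 34.1 and 41.9 CPM in M2-like cells, where M0 and M2-like samples overlapped. M1-like cells were above M2-like cells when untransfected (log2 fold change 1.34 ± 0.12 SE, adjusted p = 1.9e-11) and as mock cells (log2 fold change 0.82 ± 0.12 SE, adjusted p = 3.8e-07). The change of that difference from untransfected to mock cells was -0.52 (adjusted p = 0.21). In this interaction 0 of the 10 genes passed by edgeR (background 1.13%, with 0.0353% higher and 1.09% lower, 1 at an unadjusted p below 0.05, 0 by DESeq2). The lower level of Smox in untransfected M2-like than M0 cells (log2 fold change -0.39 ± 0.12 SE, adjusted p = 0.023) did not pass with single samples left out, at an adjusted p of 0.13 without untransfected M0 replicate 1, 0.054 without untransfected M2-like replicate 1 and 0.089 without untransfected M2-like replicate 2.

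**Figure D3:**
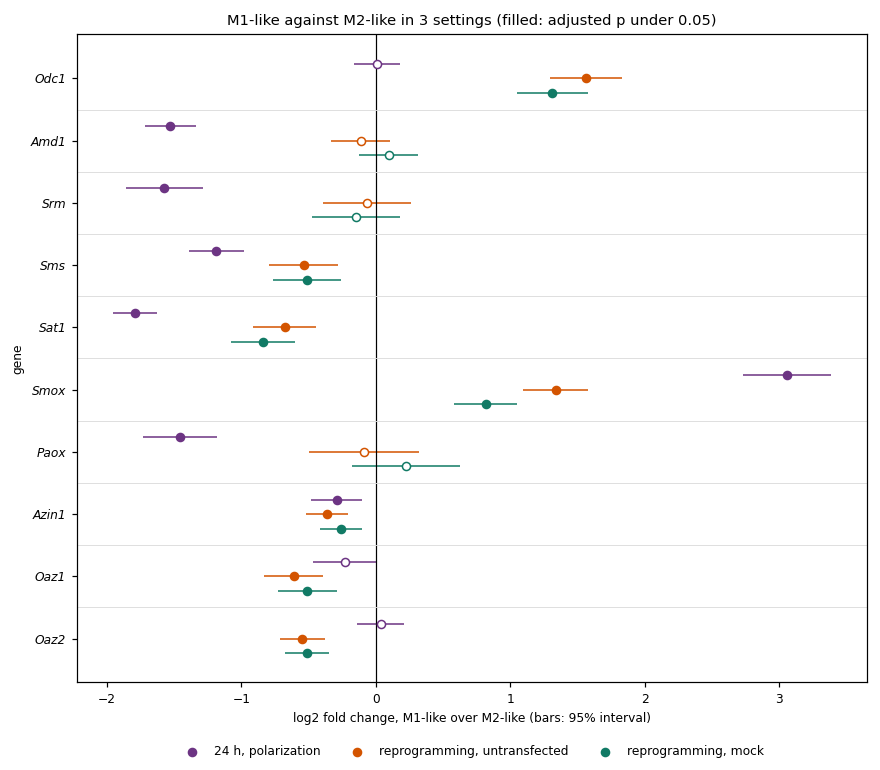
The difference of M1-like from M2-like cells (x axis, log2 fold change) is plotted for each of the 10 genes. The sets are the polarization experiment (24 h) and the untransfected and mock cells of the reprogramming experiment. Points give the estimates and lines the 95% interval. Odc1 was at 0.01 in the polarization experiment and at 1.56 and 1.31 in the untransfected and mock sets. Srm was at -1.57 in the polarization experiment and at -0.06 and -0.15 in the other sets.

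Sat1 was at 409, 258 and 257 CPM in untransfected M1-like and 527, 432 and 520.4 CPM in M2-like cells. Replicate 1 of the M1-like cells was nearer to the M2-like samples than replicates 2 and 3 (log2 fold change -0.68 ± 0.12 SE, adjusted p = 7.2e-06, and -0.94, adjusted p = 8.5e-10 without it). In mock cells Sat1 was at 345, 271 and 262 CPM in M1-like and 521, 503 and 549 CPM in M2-like cells, with no overlap (log2 fold change -0.84 ± 0.12 SE, adjusted p = 2.2e-07). Against M0 the untransfected M1-like samples overlapped (log2 fold change -0.41 ± 0.12 SE, adjusted p = 0.0029, and -0.67, adjusted p = 5.5e-07 without replicate 1). Without replicate 1, Odc1 and Smox still differed between untransfected M1-like and M2-like cells (log2 fold change 1.48, adjusted p = 1.5e-10 for Odc1, and 1.45, adjusted p = 8.8e-12 for Smox).

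M1-like cells held less Sms, Azin1, Oaz1 and Oaz2 than M2-like cells in both sets. Sms was at 11.8, 10.7 and 11.2 CPM in untransfected M1-like and 18.0, 14.3 and 16.8 CPM in M2-like cells (log2 fold change -0.54 ± 0.13 SE, adjusted p = 4.4e-04). Azin1 was at 185, 186 and 184 CPM in M1-like and 258, 232 and 224 CPM in M2-like cells (log2 fold change -0.36 ± 0.08 SE, adjusted p = 1.3e-04). Neither gene had a sample of one condition within the range of the other. Oaz1 was at 38.9, 32.2 and 30.6 CPM in M1-like and 57.0, 43.1 and 55.5 CPM in M2-like cells (log2 fold change -0.61 ± 0.11 SE, adjusted p = 1.3e-05), and its copy Oaz1-ps differed in the same direction (log2 fold change -0.72 ± 0.08 SE, adjusted p = 5.9e-09). Oaz2 was at 33.9, 31.2 and 32.0 CPM in M1-like and 54.2, 41.6 and 46.3 CPM in M2-like cells (log2 fold change -0.55 ± 0.08 SE, adjusted p = 8.1e-07). Both antizymes were separated without overlap. The genes of synthesis Amd1 and Srm, and Paox, did not pass between untransfected M1-like and M2-like cells. All were lower in M1-like cells in the polarization experiment. Their log2 fold changes were -0.11 (95% interval -0.33 to 0.11), -0.06 (-0.39 to 0.26) and -0.09 (-0.50 to 0.32). Without replicate 1 of the untransfected M1-like cells the differences were -0.58, adjusted p = 9.8e-04 for Sms, -0.36, adjusted p = 6.3e-04 for Azin1, -0.72, adjusted p = 4.5e-06 for Oaz1 and -0.58, adjusted p = 2.9e-06 for Oaz2. The polarization and reprogramming experiments were sequenced in different ways and were not tested against each other.

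Against M0 mock cells, M1-like mock cells had lower Srm (log2 fold change -0.40 ± 0.16 SE, adjusted p = 0.030) and lower Oaz1 (log2 fold change -0.29 ± 0.11 SE, adjusted p = 0.021). The groups overlapped for Srm. With single samples left out, the adjusted p of Srm was 0.23 without M0 mock replicate 2, 0.16 without M1-like mock replicate 1 and 0.062 without M1-like mock replicate 2, and that of Oaz1 was 0.082 without M0 mock replicate 1, 0.0502 without M1-like mock replicate 1 and 0.11 without M1-like mock replicate 2. With further genes of shared sequence summed, Amd1 passed as well in M1-like against M0 cells, at -0.22, adjusted p = 0.042 in untransfected and 0.21, adjusted p = 0.049 in mock cells.

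Mock and untransfected cells differed in few of these genes. In M0 cells only Amd1 differed between mock and untransfected cells (background 20.4%, with 11.7% higher and 8.66% lower), at 25.7, 26.4 and 23.5 CPM untransfected and 19.9, 19.6 and 21.6 CPM in mock cells (log2 fold change -0.31 ± 0.11 SE, adjusted p = 0.040). The groups did not overlap, but with single samples left out the adjusted p was 0.098 without untransfected M0 replicate 1, 0.14 without untransfected M0 replicate 2, 0.098 without M0 mock replicate 1 and 0.13 without M0 mock replicate 2. In M1-like cells 0 of the 10 differed by edgeR (background 0%, with 0% higher and 0% lower, 0 of the 10 at an unadjusted p below 0.05, 0 by DESeq2), and in M2-like cells 0 of the 10 (background 1.77%, with 1.67% higher and 0.0988% lower, 1 at an unadjusted p below 0.05, 0 by DESeq2).

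**Figure D4:**
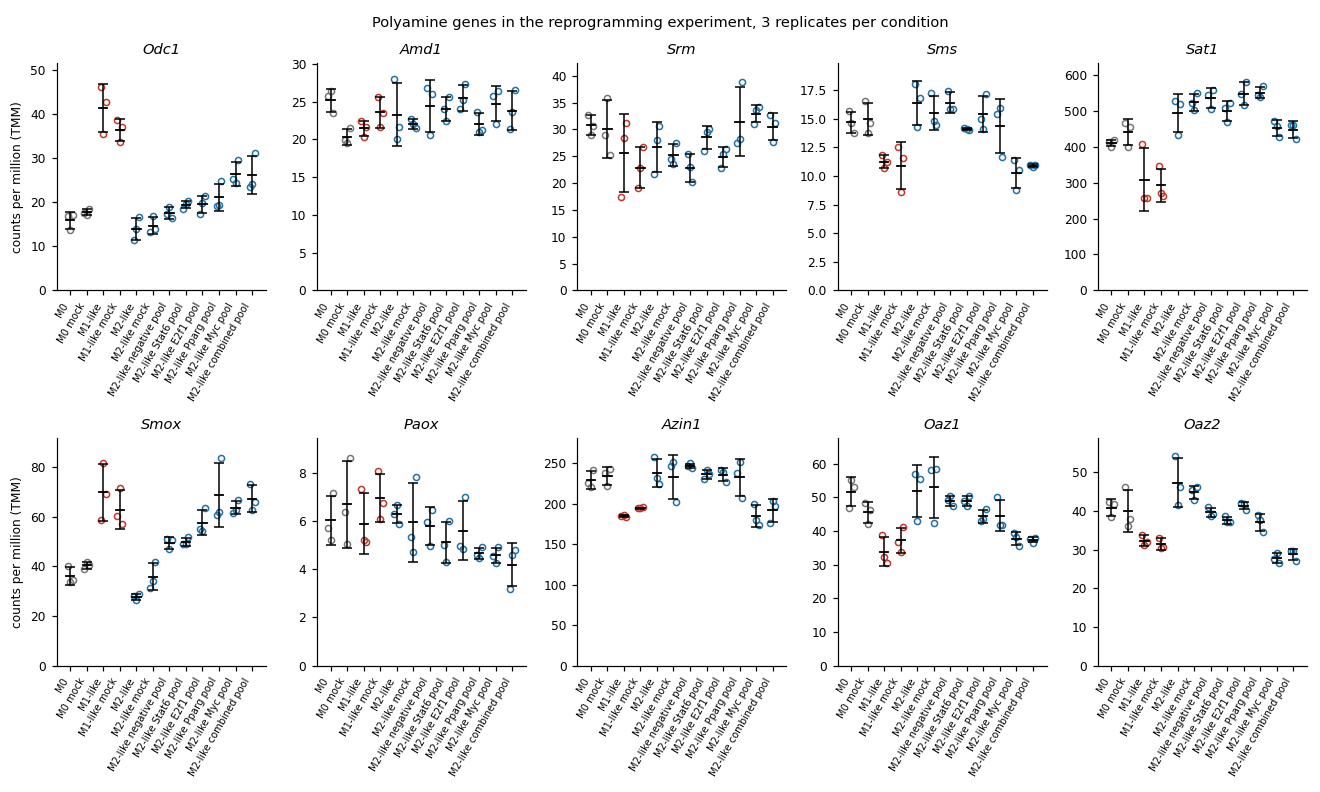
Each panel plots 1 gene over the 12 reprogramming conditions (x axis) in TMM-scaled CPM (y axis, from 0), with points for the 3 samples and lines for the mean ± SD. The mean of Odc1 ran from 14.0 CPM in untransfected M2-like to 41.4 CPM in untransfected M1-like cells, and that of Sat1 from 293 CPM in M1-like mock cells to 551 CPM with the Pparg pool.

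The comparison of siRNA pools asks whether lowering a transcription factor in M2-like cells moves transcripts towards M1-like levels. With the pool against Myc, 7 of the 10 genes differed from the negative pool (background 29.6%, with 13.9% higher and 15.6% lower): Odc1, Srm and Smox were higher and Sms, Azin1, Oaz1 and Oaz2 lower. With the combined pool 6 differed (background 26.5%, with 12.5% higher and 13.9% lower), namely Odc1 and Smox, which were higher, and Sms, Azin1, Oaz1 and Oaz2, which were lower. The pools against E2f1 and Stat6 moved 0 of the 10 by edgeR (background 0.91%, with 0.261% higher and 0.649% lower for E2f1, and 1.51%, with 0.466% higher and 1.04% lower for Stat6), with 0 of the 10 at an unadjusted p below 0.05 and 0 by DESeq2 for either. The Pparg pool moved Smox alone (background 5.74%, with 2.71% higher and 3.03% lower, 2 at an unadjusted p below 0.05). All 5 contrasts share the negative pool samples.

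Odc1 was at 17.3, 19.0 and 16.4 CPM with the negative pool, 25.2, 24.4 and 29.5 CPM with the Myc pool and 23.3, 24.1 and 31.1 CPM with the combined pool. Every sample of the Myc and combined pools lay above the negative pool and below the M1-like samples. Both differed from the negative pool (log2 fold change 0.58 ± 0.13 SE, adjusted p = 8.2e-04 for Myc, and log2 fold change 0.58 ± 0.13 SE, adjusted p = 0.0011 for the combined pool). Smox was at 51.1, 46.8 and 50.7 CPM with the negative pool, 61.5, 62.8 and 66.6 CPM with the Myc pool and 73.3, 62.5 and 65.8 CPM with the combined pool. Again no sample overlapped the negative pool (log2 fold change 0.36 ± 0.11 SE, adjusted p = 0.016 for Myc, and log2 fold change 0.44 ± 0.11 SE, adjusted p = 0.0042 for the combined pool). The Smox call for Myc was lost with single samples left out, at an adjusted p of 0.063 without Myc pool replicate 3 and 0.068 without negative pool replicate 2. The negative pool itself had raised Smox over mock (log2 fold change 0.47 ± 0.12 SE, adjusted p = 0.0064), as the only gene of the 10 (background 11.7%, with 6.67% higher and 5.03% lower), and this call had an adjusted p of 0.062 without M2-like mock replicate 1. With copies summed, 2 of the 10 passed between the negative pool and mock.

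The spermine synthase gene Sms fell to 11.4, 8.80 and 10.6 CPM with the Myc pool and 11.0, 10.8 and 10.9 CPM with the combined pool, from 17.5, 15.9 and 15.9 CPM with the negative pool. The ranges did not overlap (log2 fold change -0.68 ± 0.12 SE, adjusted p = 9.8e-05 for Myc, and log2 fold change -0.59 ± 0.12 SE, adjusted p = 5.7e-04 for the combined pool). The copy Sms-ps also fell with the Myc pool (log2 fold change -0.33 ± 0.09 SE, adjusted p = 0.0078), and it did not pass with the combined pool. The neighbour of Sms in the pathway, Srm, went the other way, at 25.5, 22.9 and 20.2 CPM with the negative pool, 31.1, 33.7 and 34.1 CPM with the Myc pool and 32.7, 27.7 and 31.2 CPM with the combined pool. Myc pool samples lay above the negative pool (log2 fold change 0.53 ± 0.16 SE, adjusted p = 0.011), with an adjusted p of 0.073 without negative pool replicate 3. For the combined pool the difference did not pass by edgeR (log2 fold change 0.42 ± 0.16 SE, adjusted p = 0.0512), and it did by DESeq2 (0.42, adjusted p = 0.045).

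Of the regulators, Azin1 fell to 200.2, 179.8 and 174 CPM with the Myc pool and 176, 203 and 197 CPM with the combined pool, from 246, 249.9 and 245 CPM (log2 fold change -0.42 ± 0.08 SE, adjusted p = 8.3e-05 for Myc, and log2 fold change -0.36 ± 0.08 SE, adjusted p = 5.3e-04 for the combined pool). Oaz2 was at 41.0, 38.7 and 39.3 CPM with the negative pool, 27.5, 29.1 and 26.6 CPM with the Myc pool and 29.7, 29.7 and 27.2 CPM with the combined pool (log2 fold change -0.52 ± 0.08 SE, adjusted p = 1.4e-05 for Myc, and log2 fold change -0.46 ± 0.08 SE, adjusted p = 8.4e-05 for the combined pool). For both genes all samples of the Myc and combined pools lay below all negative pool samples. Oaz1 was at 49.1, 50.3 and 47.4 CPM with the negative pool, 39.6, 38.1 and 35.6 CPM with the Myc pool and 37.7, 36.6 and 37.9 CPM with the combined pool, again without overlap. Its calls (log2 fold change -0.37 ± 0.11 SE, adjusted p = 0.0085 for Myc, and log2 fold change -0.39 ± 0.11 SE, adjusted p = 0.0073 for the combined pool) ended once Oaz1-ps was added (-0.09, adjusted p = 0.42 and -0.15, adjusted p = 0.18), and Oaz1-ps alone did not pass with the Myc pool (log2 fold change -0.06 ± 0.08 SE, adjusted p = 0.65).

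The 6 proliferation markers summed to 18.1 to 23.5 CPM with the Myc pool, 20.6 to 28.6 CPM with the combined pool and 34.1 to 36.1 CPM with the negative pool. They did not overlap between the negative pool and either other pool. With the E2f1 pool, which moved 0 of the 10 genes, these sums also lay below every negative pool sample. The part of proliferation or of the siRNA supplier in the values above was not tested. The combined pool and the Myc pool differed in 0 of the 10 genes by edgeR (background 0.0494%, with 0% higher and 0.0494% lower, 0 at an unadjusted p below 0.05, 0 by DESeq2), with 95% intervals of -0.26 to 0.25 for Odc1 and -0.17 to 0.35 for Sms on the log2 scale. Smox was at 60.5, 61.9 and 83.6 CPM with the Pparg pool, above the negative pool in every sample (log2 fold change 0.47 ± 0.11 SE, adjusted p = 0.010), and the adjusted p was 0.18 without Pparg pool replicate 3 and 0.055 without negative pool replicate 2.

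**Figure D5:**
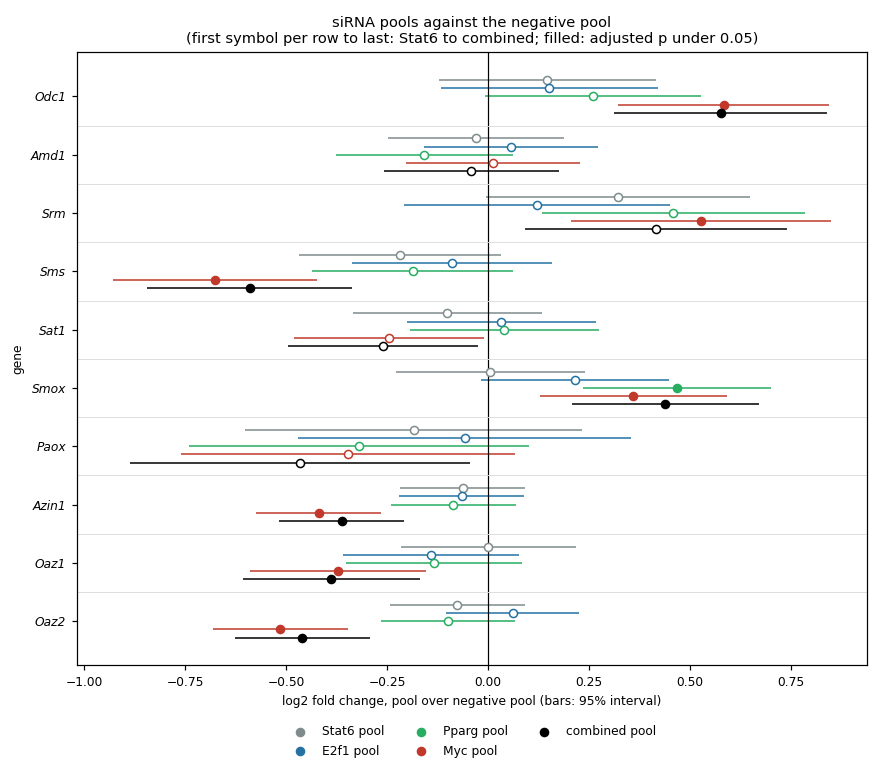
The log2 fold change against the negative pool in M2-like cells is plotted for the 10 genes and the pools, with points for the estimates and lines for the 95% interval. With the Myc pool Odc1 was at 0.58 and Sms at -0.68, and with the combined pool they were at 0.58 and -0.59.

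Against mock M2-like cells, the combined pool differed in 6 of the 10 genes (background 37.1%, with 19% higher and 18.1% lower), with Odc1 (0.84) and Smox (0.91) higher and Sms (-0.51), Azin1 (-0.28), Oaz1 (-0.50) and Oaz2 (-0.64) lower on the log2 scale. The groups overlapped for Azin1. Against M1-like mock cells, the state that reprogramming aimed for, 4 of the 10 still differed (background 52.9%, with 27.2% higher and 25.6% lower). Odc1 was lower in the combined pool (log2 fold change -0.47 ± 0.12 SE, adjusted p = 0.0017), as was Paox (log2 fold change -0.73 ± 0.20 SE, adjusted p = 0.0030), while Sat1 (log2 fold change 0.61 ± 0.12 SE, adjusted p = 4.6e-05) and Srm (log2 fold change 0.42 ± 0.16 SE, adjusted p = 0.026) were higher. Sat1 was at 462, 459.7 and 420.4 CPM with the combined pool and 345, 271 and 262 CPM in M1-like mock cells, without overlap. The Srm call had an adjusted p of 0.15 without M1-like mock replicate 1, 0.056 without M1-like mock replicate 2, 0.088 without combined pool replicate 1 and 0.063 without combined pool replicate 3. With its copy summed, Oaz1 was higher in the combined pool (0.35, adjusted p = 3.9e-04). Smox, Sms, Azin1 and Oaz2 did not pass in this contrast, with 95% intervals of -0.13 to 0.32, -0.26 to 0.26, -0.17 to 0.13 and -0.29 to 0.04 on the log2 scale.

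A further 36 genes around polyamine metabolism were described in 5 lists, and 30 of them were tested. Ornithine supply had 8 genes, the methionine cycle and salvage 11 and polyamine transport 8. The formation of hypusine on eIF5A had 4, and 5 were further polyamine genes. At 24 h, M1-like cells were higher than M2-like cells for 4 of the 30 and lower for 19 (background 72.6%, with 34.6% higher and 38.1% lower). Of the 7 tested genes of ornithine supply, 2 were higher and 5 lower. The arginine transporter Slc7a2 (3.36) and the mitochondrial arginase Arg2 (2.82) were higher, on the log2 scale. The cytosolic arginase Arg1 (-1.60) was among the lower ones. Arg1 rose from M0 under both stimuli (log2 fold change 4.82 ± 0.43 SE, adjusted p = 7.2e-07 in M1-like, and log2 fold change 6.42 ± 0.46 SE, adjusted p = 2.3e-06 in M2-like cells). Among methionine cycle and salvage genes, Mri1 (-2.11), Ahcy (-1.30) and Mtap (-1.15), which recycles the by-product of Srm and Sms, were lower. Of the transport genes, the vesicular polyamine transporter Slc18b1 (-3.16) and Atp13a3 (-1.24) were lower and Slc3a2 (1.01) was higher. Sat2 was lower as well (-2.76), and so was Dohh (-0.58), which completes the hypusine that spermidine donates to eIF5A.

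In the reprogramming experiment M1-like cells were higher than M2-like cells for 6 of the 30 and lower for 11, in untransfected cells (background 61.5%, with 31.3% higher and 30.2% lower) as in mock cells (background 60.7%, with 30.9% higher and 29.8% lower). Counted in either direction, these shares and that at 24 h lie near the background. By direction the 24 h share does not, with 4 of the 30 higher and 19 lower (background 34.6% higher and 38.1% lower). Slc18b1 was lower at -2.30 and -1.95 and Slc3a2 higher at 0.85 and 0.80, in that order. Arg1 did not pass (log2 fold change 1.43 ± 0.67 SE, adjusted p = 0.064 in untransfected, and log2 fold change 1.18 ± 0.68 SE, adjusted p = 0.14 in mock cells). With the Myc pool 4 of the 30 were higher and 7 lower than with the negative pool (background 29.6%, with 13.9% higher and 15.6% lower), led by Slc18b1 (-1.10) and Adi1 (-1.05), a salvage enzyme, which were lower, and Slc3a2 (0.61) and Dohh (0.53), which were higher. With the combined pool 2 were higher and 6 lower (background 26.5%, with 12.5% higher and 13.9% lower). Counted in either direction, that share is also near the background.

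Across the 12 condition means of the reprogramming experiment, which share libraries and normalization, Odc1 ran with Smox (Pearson r 0.82) and against Oaz1 (-0.95) and Sms (-0.86), while Sms ran with Azin1 (0.97) and Oaz2 (0.95). These are descriptions over 12 means, and the values of Oaz1, Sms and Oaz2 leave out the counts on their copies. In this experiment Oaz1-ps and Sms-ps took a median of 89.6% and 68.8% of the counts of their pairs. Of 5478 genes screened, Nat9 (0.994), Nfkbib (0.993), Isca2 (0.987) and Cd40 (0.987) were among the 5 most like Odc1 by the same measure. Those most like Sat1 were Anxa4 (0.990), Gatm (0.983), Ctsl (0.982), Ercc6 (0.981) and Capg (0.980).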

How the data were processed

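Per the labels and the study's methods, reads (single, 50 bases, in the polarization experiment and paired, 150 bases, in the reprogramming experiment) were trimmed with Trimmomatic, aligned to mm10 with TopHat2 and assigned to genes with featureCounts. Tool versions, gene annotation and strand setting are not given in the sources used here. The authors deposited raw counts per gene for 54 libraries, without normalization. Of 39179 identifiers, 37607 were paired with a symbol.

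Technical replicates were summed, since they differed by little more than counting noise (chi-square per gene 1.07 to 1.10). One edgeR quasi-likelihood fit per experiment (edgeR 4.0.16, R 4.3.3) used TMM scaling and filterByExpr, which kept 16110 and 14172 genes. P-values were adjusted over all genes by Benjamini-Hochberg (threshold 0.05), and the standard error was taken from the fold change and F. Levels are CPM on the TMM scale. In the polarization experiment same-numbered samples come from the same mouse (median correlation of deviations 0.27, against -0.14 for different mice), and the fit with the mouse as a block changed no call. The script was tested on simulated counts. Alternatives were DESeq2 1.42.0, relative log expression scaling, no filter, only the compared groups, a replicate block, copies summed, and each sample left out. Summing further sequence-sharing genes was added after seeing the data.

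The 10 genes, the further lists and the tests were chosen with earlier results of these data known. The 10 genes are named in every comparison that counts them. Of the further lists, at most the 3 passing genes with the largest absolute log2 fold change are named per comparison, and Arg1 was also named outside this rule. The genes most like Odc1 and Sat1 are the 5 with the highest correlation of condition means, among genes whose log2 CPM averaged 3 or more and spanned 0.5 or more. One of these genes is not reported here.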

Additional observations from a re-analysis of the deposited data

How the results depend on the processing

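No gene of the 10 reversed direction among its called results under any alternative. The number of genes changed in M2-like against M0 cells at 24 h was 5, and 3 to 7 with 1 sample left out. In untransfected M2-like against M0 cells it was 1, became 2 without the filter, 2 with only the compared groups and 2 with the replicate block, and was 0 to 1 with 1 sample left out. It was also 0 to 1, against 1, for mock against untransfected M0 cells, for the negative pool against mock and for the Pparg pool. The negative pool against mock gave 2 with copies summed and 2 with further sequence-sharing genes summed, the Pparg pool 2 without the filter and 2 with only the compared groups. Mock against untransfected M2-like cells, and the interaction, gave 1 in place of 0 without the filter.

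The reprogramming samples share only a replicate number (median correlation 0.188 for the same number, -0.087 for different ones). The replicate block there ended no call and added 5: Amd1 in M1-like against M0 untransfected cells (-0.24, edgeR adjusted p = 0.037), Oaz2 in M2-like against M0 untransfected cells (0.21, 0.027), Paox in the combined pool against mock (-0.48, 0.031), and Srm (0.41, 0.030) and Sat1 (-0.26, 0.046) in the combined pool against the negative pool. Over 220 results (10 genes in 22 comparisons, called or not), relative log expression scaling ended 1 call and DESeq2 added 1. The cause of these changes was not tested. With 3 samples per condition, differences smaller than the intervals given could not be seen.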
